A study of Mus musculus with 12 samples.

Results

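The cells named Astrocytes (immature) 2 [13-P] in the deposited cell table were described here, in newborn mouse prefrontal cortex of 3 Myt1l genotypes. They were taken by that name alone, and they numbered 5708 of 36263 cells. A second group of the same table, Astrocytes (immature) 1 [10-P], held 841 cells and served as the nearest comparison, and all remaining cells of each library as the wider one. The mice, at postnatal day 0 (P0), are labelled C57BL/6J, whereas the study's methods describe breeding on C57BL/6N. WT animals carried no mutant allele, HET animals carried it on 1 chromosome and HOM animals on both. The allele lacks 7 bp of exon 6 and is thereby out of frame. Myt1l encodes a zinc finger transcription factor of neurons. It was made in zygotes, so every cell of a mutant animal carries it. Cells of 2 animals per genotype were fixed in methanol, pooled and captured in 1 droplet library, which was read from the 5′ end of the transcripts. Each genotype was therefore 1 library without a replicate, no cell could be assigned to its animal, and no p-value was computed between genotypes.

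Astrocytes arise from radial glia, the stem cells of the cortex, once most neurons have been made. They take up glutamate and GABA from the extracellular space, move water and ions, export lipids in lipoproteins, and secrete matrix proteins that act on synapses. At birth many still divide, and they keep genes of their radial glial parents switched on.

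The levels given below are depth-corrected transcript values summed over the cells of a type in a library, per 1000000 of that sum (CPM). A ratio is a log2 ratio of such levels with no pseudocount, and only genes whose summed value over the 2 sides came to at least 50, with neither side at 0, were compared. Genotype names rest on the deposited cell table, because a count table of the study gives the same cell numbers to the genotypes in another order. Sex went with genotype as well, since Xist, the transcript of the inactive X chromosome, was seen in 118 Astrocytes (immature) 2 cells of WT but in 1 cell of HET and 1 cell of HOM, while a Y-linked transcript was seen in 31, 219 and 244 cells. Genotype, sex, animal and lane cannot be told apart. The type was shallow: a cell held a median of 718, 860 and 777 molecules in the WT, HET and HOM libraries, against 1900, 2079 and 1106 in Astrocytes (immature) 1, and its median over all libraries was the fourth lowest of 21 cell types. Values in threes are given in that order throughout. Mitochondrial transcripts took a median of 6.55%, 6.47% and 4.97% of the molecules of a cell, against 3.33%, 3.55% and 3.59% in Astrocytes (immature) 1. Of the type's cells, 224 had a barcode that was also used in another library.

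All 5 marker genes given for the type had their highest mean level of the 21 cell types there. Lcat, the plasma enzyme that esterifies cholesterol in lipoproteins (chr8:105939551-105943382, mm10), stood at 18.9, 20.1 and 18.1 CPM, and was listed at 0 in the WT and HOM libraries of Astrocytes (immature) 1. Aqp4, the water channel of astrocytes, stood at 203, 237 and 210 CPM, against 83.1, 121 and 91.1. Slc7a10, an exchanger of small neutral amino acids (chr7:35186385-35201114), stood at 50.8, 81.2 and 81.9 CPM, against 34.5, 52.1 and 33.6. The libraries of the astrocyte types did not overlap for Lcat and Aqp4, but for Slc7a10 the lowest value of the type lay below the highest of Astrocytes (immature) 1. Agt, the precursor of the angiotensins (chr8:124556534-124569706), stood at 98.7, 47.8 and 136 CPM, against 16.2, 6.52 and 24.0. Pla2g7, a secreted lipase of platelet-activating factor (chr17:43568098-43612201), stood at 198, 281 and 434 CPM, against 97.3, 186 and 331. Agt libraries were separate, with HET lowest of the 3, whereas Pla2g7 ranges overlapped and HOM was highest in both types. Outside the astrocytes the next type was far lower for Aqp4, with a mean of 217 CPM against 11.8 in the ganglionic eminences, and nearest for Slc7a10, with 71.3 against 32.1 in layer I cells. The markers did not go against the name in any library.

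**Figure D1:**
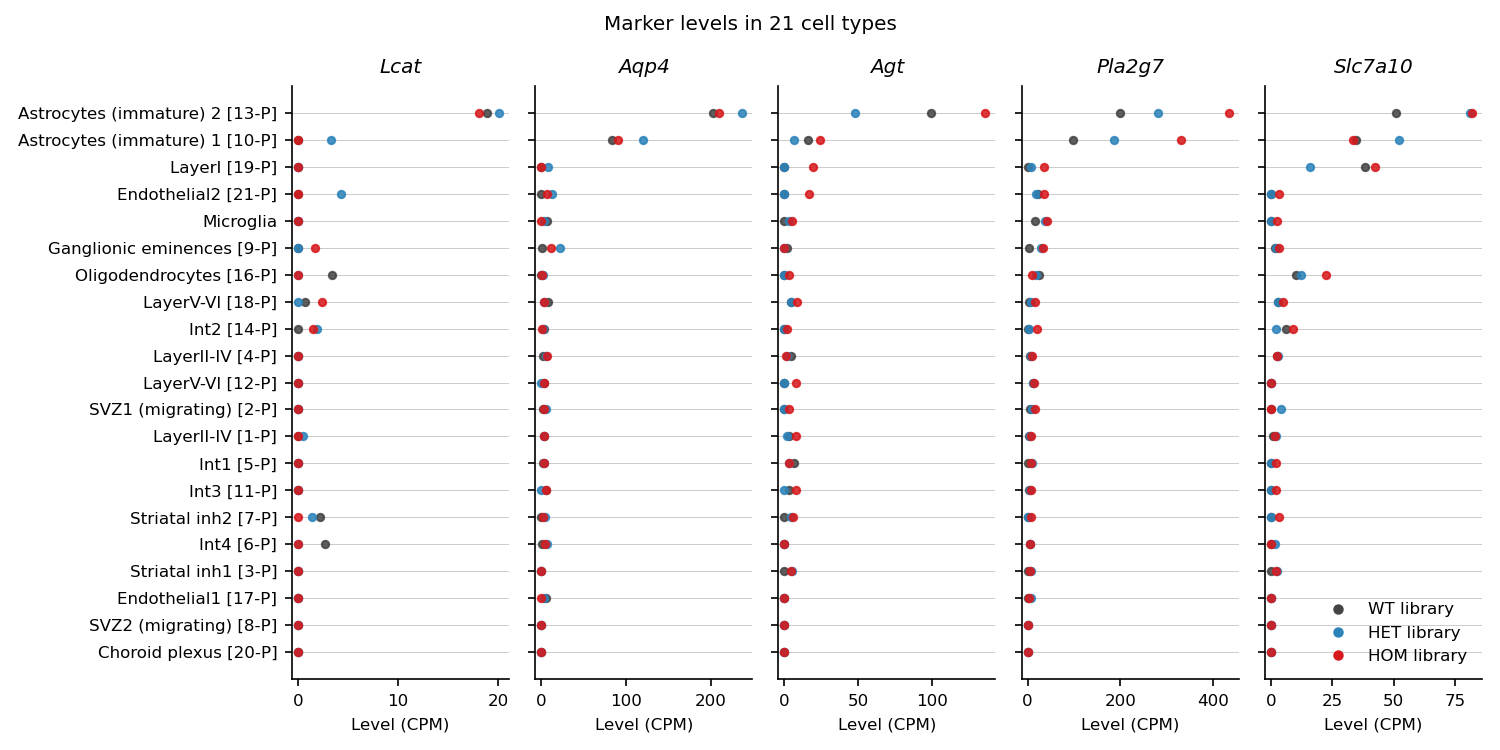
Level of the 5 marker genes (CPM, x axis) in 21 cell types (rows), with 1 point for each library. Astrocytes (immature) 2 has the highest mean for each gene, and Pla2g7 in its HOM cells reaches 434 CPM.

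The 250 bases before the start of 4 genes are printed, because Agt and Timp4 were higher and Hopx lower than in Astrocytes (immature) 1 in every library, and Slc7a10 is one of the markers. They come from RefSeq on GRCm38.p6, 5′ to 3′ on the strand of the gene. Capitals mark AAAGTT, the core bases bound by MYT1L, and TTGGC, a half-site of nuclear factor I, each on either strand.
Agt (chr8:124569707-124569956, minus strand): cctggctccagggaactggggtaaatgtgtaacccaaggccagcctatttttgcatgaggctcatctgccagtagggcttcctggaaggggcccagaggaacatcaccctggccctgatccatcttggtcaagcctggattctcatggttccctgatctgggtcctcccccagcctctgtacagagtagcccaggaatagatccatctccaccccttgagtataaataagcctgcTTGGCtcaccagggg
Slc7a10 (chr7:35186135-35186384, plus strand): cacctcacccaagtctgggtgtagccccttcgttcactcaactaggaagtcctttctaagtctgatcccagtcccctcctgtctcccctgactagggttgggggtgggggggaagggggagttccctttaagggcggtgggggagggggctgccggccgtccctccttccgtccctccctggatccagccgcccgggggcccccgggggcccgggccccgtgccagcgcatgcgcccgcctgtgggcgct
Timp4 (chr6:115252206-115252455, minus strand): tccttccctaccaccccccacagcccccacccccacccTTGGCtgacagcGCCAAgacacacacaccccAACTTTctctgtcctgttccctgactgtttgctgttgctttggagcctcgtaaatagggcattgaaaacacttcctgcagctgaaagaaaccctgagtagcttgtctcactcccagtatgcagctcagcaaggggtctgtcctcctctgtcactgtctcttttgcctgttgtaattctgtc
Hopx (chr5:77115124-77115373, minus strand): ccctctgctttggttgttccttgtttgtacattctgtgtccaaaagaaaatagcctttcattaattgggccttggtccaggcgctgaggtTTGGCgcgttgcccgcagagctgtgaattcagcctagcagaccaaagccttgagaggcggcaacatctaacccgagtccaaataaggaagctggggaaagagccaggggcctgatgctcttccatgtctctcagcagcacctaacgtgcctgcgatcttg
AAAGTT was found once, upstream of Timp4, and it occurs in 12.4% of 32851 upstream windows of the same length. TTGGC was found upstream of Agt, Timp4 and Hopx, and it occurs in 41.5% of those windows. A match is a run of letters and not a measured binding site.

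Astrocytes (immature) 2 made up 1300 of 10503 cells in WT, or 12.4% (exact Clopper-Pearson 95% interval 11.75% to 13.02%, counting error only). The share was 15.4% in HET (14.76% to 16.06%; 1859 of 12072 cells) and 18.6% in HOM (17.97% to 19.28%; 2549 of 13688 cells). The 3 intervals did not overlap, and WT was lowest. Astrocytes (immature) 1 ran the other way, with 3.89%, 2.08% and 1.32%, and both types together made up 16.3%, 17.5% and 19.9%. Among cells with at least 1000 molecules the share of Astrocytes (immature) 2 was 6.44% in WT, 11.9% in HET and 11.7% in HOM, and HET and HOM were then alike to within 1 percentage point. With 1 library per genotype the spread between animals is unknown.

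Single cells of the type carried few of their markers. At least 1 of the 5 markers was above 0 in 27.1% of WT cells, 34.4% of HET cells and 36.6% of HOM cells, against 1.11%, 1.83% and 2.63% in the cells outside both astrocyte types, whose median depth was higher (1142, 1162 and 1674 molecules). No cell had all 5. The share grew with depth in each library: in WT it was 18.97% of the 949 cells under 1000 molecules, 40.3% of 196 cells from 1000 to under 2000 and 60.0% of 155 cells with at least 2000. In HET the same steps were 19.03%, 41.2% and 68.1%, and in HOM 25.5%, 51.1% and 59.4%. Outside the astrocytes the share stayed between 0.907% and 3.98% at every depth, and in Astrocytes (immature) 1 cells of at least 2000 molecules it was 25.7%, 46.1% and 40.3%. More widely expressed glial genes reached most of the cells, since Fabp7, a fatty acid binding protein of radial glia, was above 0 in 93.5%, 98.2% and 98.2% of them, Apoe, the main lipoprotein of astrocytes, in 61.7%, 63.8% and 61.6%, and Slc1a3, the glutamate transporter of early astrocytes, in 46.0%, 51.0% and 49.9%. Fabp7 was above 0 in 39.6%, 52.7% and 58.8% of the cells outside the astrocytes, far above the share of the 5 markers there.

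Neuron and red blood cell transcripts were highest in the shallow cells of the type. The 18 neuron markers summed to 4155 CPM in WT cells under 1000 molecules, 2508 CPM in the middle band and 918 CPM in cells of at least 2000. The 6 red blood cell genes were at 2158, 1030 and 427 CPM in the same bands. Deep cells were lowest in both lists, but the 10 oligodendrocyte lineage markers ran the other way, with 565, 780 and 1051 CPM in WT, 512, 714 and 955 in HET and 607, 758 and 1380 in HOM. The 23 astrocyte transporters, channels and junction genes were also highest in deep cells. In WT they summed to 3538, 5973 and 10490 CPM by band, and Aqp4 stood at 135, 255 and 427 CPM. Many of the comparisons below therefore carry values for deep cells or for each band. Ratios of single genes within bands were taken without the minimum sum, so those of low genes rest on small sums.

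**Figure D2:**
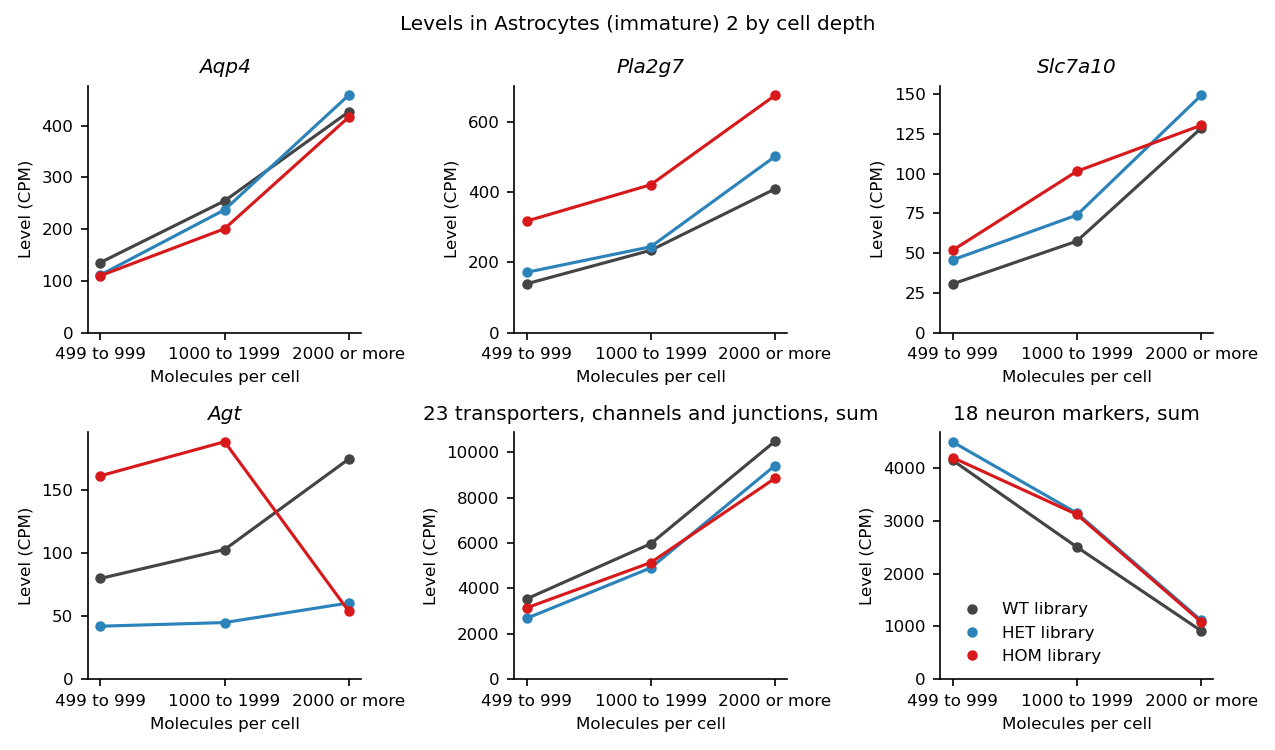
Levels in Astrocytes (immature) 2 (CPM, y axis) in 3 bands of molecules per cell (x axis), with 1 line for each library. Aqp4 and the summed transporters are highest in the deepest cells, where the summed neuron markers are lowest (918 CPM in WT), and Agt in HOM drops to 53.7 CPM there.

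The deposited Leiden clusters, which had been computed on all cells, divided the type into 1 large and several small groups. Cluster 0 held 4205 cells, 73.7% of the type, at 73.3% of WT, 75.3% of HET and 72.7% of HOM cells. Cluster 1 held 789 cells (13.8%), cluster 8 held 437 (7.66%), cluster 11 held 121 (2.12%) and cluster 9 held 83 (1.45%). The marker genes sat mainly in cluster 0, where the 5 summed to a mean of 898 CPM, against 105 in cluster 1, 191 in cluster 8, 66.2 in cluster 9 and 105 in cluster 11. Aqp4 in cluster 0 stood at 255, 296 and 269 CPM, and Agt at 130, 59.4 and 175 CPM. Leading genes of cluster 0, chosen after their values were seen, were Btbd17, Pla2g7 and Pla2g3, another secreted phospholipase.

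Of the clusters named above, cluster 8 was highest in cell cycle genes. Over all types, 22.5% of that cluster's cells carried the type's name. The 24 cell cycle genes summed to 8776 CPM there on average, against 2021 in cluster 0, and Top2a, the topoisomerase of dividing cells, stood at 585, 545 and 581 CPM against 34.3, 48.7 and 45.2. It took 7.46% of the type's WT cells, 8.45% of HET and 7.18% of HOM cells. Agt was listed at 0 in cluster 8 in all 3 libraries, while Olig1, a transcription factor of the oligodendrocyte lineage, was at 863, 1085 and 1346 CPM, against 508, 525 and 646 in cluster 0.

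Clusters 1, 9 and 11 carried other lineages' genes. In cluster 1 the neuron markers summed to 7405 CPM, against 2663 in cluster 0, and Stmn2, a microtubule regulator of growing neurons, stood at 2159, 2625 and 2653 CPM against 723, 842 and 847. Only 22.3% of that cluster's cells, over all types, carried the name Astrocytes (immature) 2, and the median depth of those cells was 660 molecules. In cluster 11 the oligodendrocyte lineage markers summed to 2798 CPM against 706, with Pdgfra, the receptor of oligodendrocyte precursors, at 459, 148 and 191 CPM. In cluster 9 the neuron markers summed to 4927 CPM. The share of cells that carried the type's name was 9.50% in cluster 11 and 5.60% in cluster 9. All 3 clusters were low in the 5 markers, and no doublet caller was run on these corrected values.

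**Figure D3:**
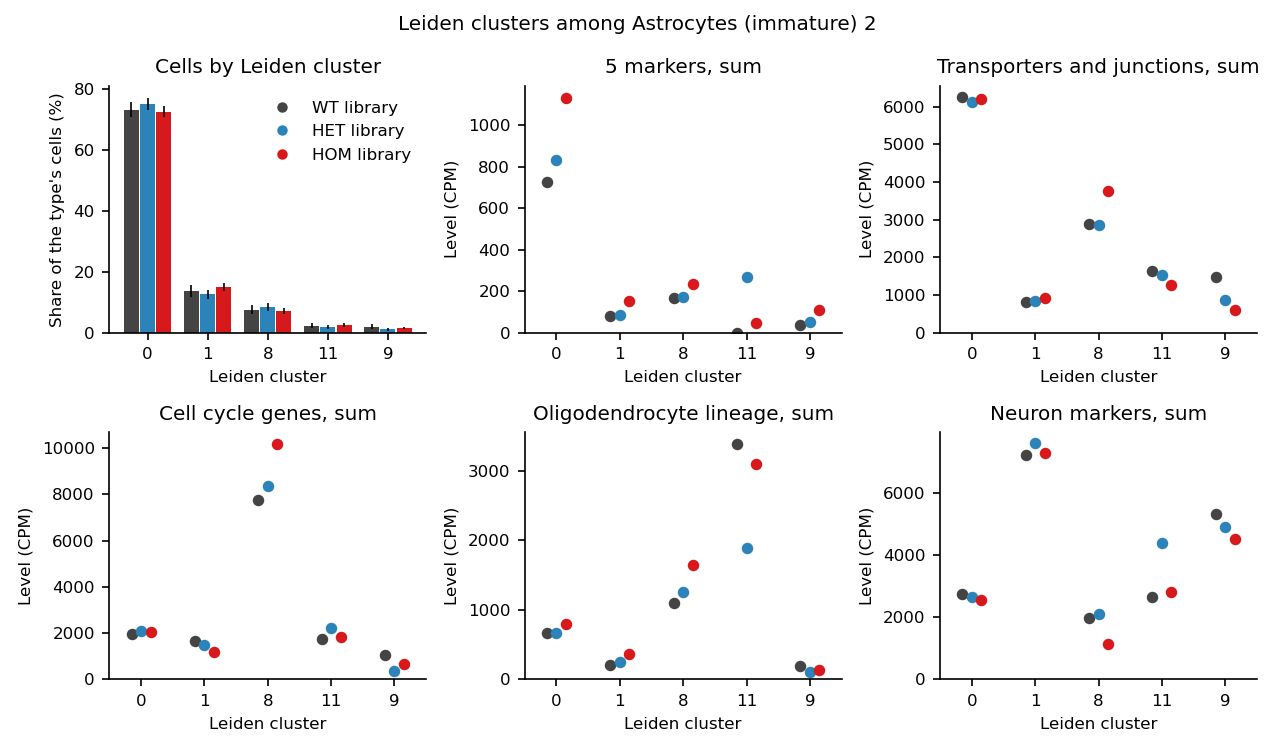
Share of the type's cells in each Leiden cluster (%, bars with exact 95% intervals) and summed levels of 5 gene lists by cluster (CPM), with 1 bar or point for each library. Cluster 0 holds 73.7% of the cells and most marker signal, and cluster 8 stands apart by cell cycle genes (mean 8776 CPM).

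Against all other cells of the same library, 1094 of 11302 genes compared (9.68%) were at least 1.5-fold higher in Astrocytes (immature) 2 in all 3 libraries and 2266 (20.0%) lower. That split depends on scaling, since 1605 were higher and 1316 lower after median-of-ratios scaling. The median log2 ratio of all genes was -0.28. Cell names came from a model over all genes, so these ratios describe the type and were not tested. The astrocyte lists were higher nearly throughout: 17 of 20 transporters, channels and junction genes (median log2 ratio 3.16), 25 of 28 lipid genes (1.63), 17 of 21 secreted and matrix genes (2.59), 19 of 19 metabolic genes (2.54) and 19 of 22 receptors (2.11), with none lower. By mean summed level over all cells, Astrocytes (immature) 1 was the highest cell type for each of these lists and Astrocytes (immature) 2 the next. For the transporters the means were 5293 and 5069 CPM, with Endothelial1 cells at 4463. The order of the transporters turned among cells of at least 2000 molecules. They summed there to 10490, 9420 and 8858 CPM, against 7363, 7129 and 7150 in Astrocytes (immature) 1. Receptors were higher in Astrocytes (immature) 2 there in WT and HET but not in HOM. The lipid, secreted and metabolic lists stayed higher in Astrocytes (immature) 1 in every library. Against all other cells Pla2g3 had the largest ratio, at 82.0, 80.2 and 78.0 CPM in the type and log2 ratios of 5.79, 5.60 and 4.99. A2m, the protease inhibitor alpha-2-macroglobulin, followed the markers with log2 ratios of 4.45, 4.83 and 4.82, and so did Aldh1l1, the folate enzyme used to mark astrocytes, at 495, 466 and 461 CPM (4.01, 4.06 and 4.26). Levels of both lay close together across the libraries.

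Neuron, microglia, vascular and intermediate progenitor lists were lower. All 18 neuron markers were at least 1.5-fold lower in the type (median -1.91), as were 12 of 12 microglia markers compared (-1.82), 13 of 13 endothelial and mural markers (-2.45) and 6 of 7 intermediate progenitor markers (-1.82). Microglia markers summed to 174, 156 and 183 CPM in the type and endothelial markers to 147, 146 and 206 CPM. Of 7 oligodendrocyte lineage markers 2 were higher and 1 lower (median -1.02), of 3 meningeal markers 1 was lower, and of 5 red blood cell genes none was past the fold (median 0.58). The higher ones were Olig1 and Olig2, paired factors of the oligodendrocyte lineage, with log2 ratios over all other cells of 1.74, 1.44 and 1.08 for Olig1 and 1.12, 1.03 and 0.94 for Olig2. Glial transcription factors were mixed, with 15 of 27 higher and 5 lower. Among cells of at least 2000 molecules the neuron list had a median of -3.37, and the transporters one of 3.78.

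Against Astrocytes (immature) 1, 205 of 5504 genes (3.72%) were at least 1.5-fold higher in all 3 libraries and 273 (4.96%) lower, and without ribosomal, mitochondrial, red blood cell and sex-linked genes in the total these were 263 and 222. In cells of 1000 to 2000 molecules they were 35 and 13. Astrocytes (immature) 1 held only 181 cells in HOM, and several of its low values rest on a few cells. Timp4, an inhibitor of matrix metalloproteases, stood at 78.4, 72.6 and 103 CPM in Astrocytes (immature) 2 and at 4.06, 3.26 and 9.59 in Astrocytes (immature) 1, where 0.489%, 0.398% and 0.552% of cells had it. Serpine2, a secreted inhibitor of serine proteases, stood at 717, 950 and 1008 CPM against 48.7, 48.9 and 144 (log2 ratios 3.88, 4.28 and 2.81). Olig1 stood at 509, 550 and 677 CPM against 58.8, 81.5 and 120, and Lrig1, a negative regulator of growth factor receptors, at 161, 173 and 153 against 28.4, 32.6 and 28.8. The libraries of both types did not overlap for any of these genes. Among cells of at least 2000 molecules the log2 ratios were 6.16, 5.81 and 6.34 for Serpine2 and 3.76, 3.02 and 3.56 for Olig1, larger than over all cells in every library.

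**Figure D4:**
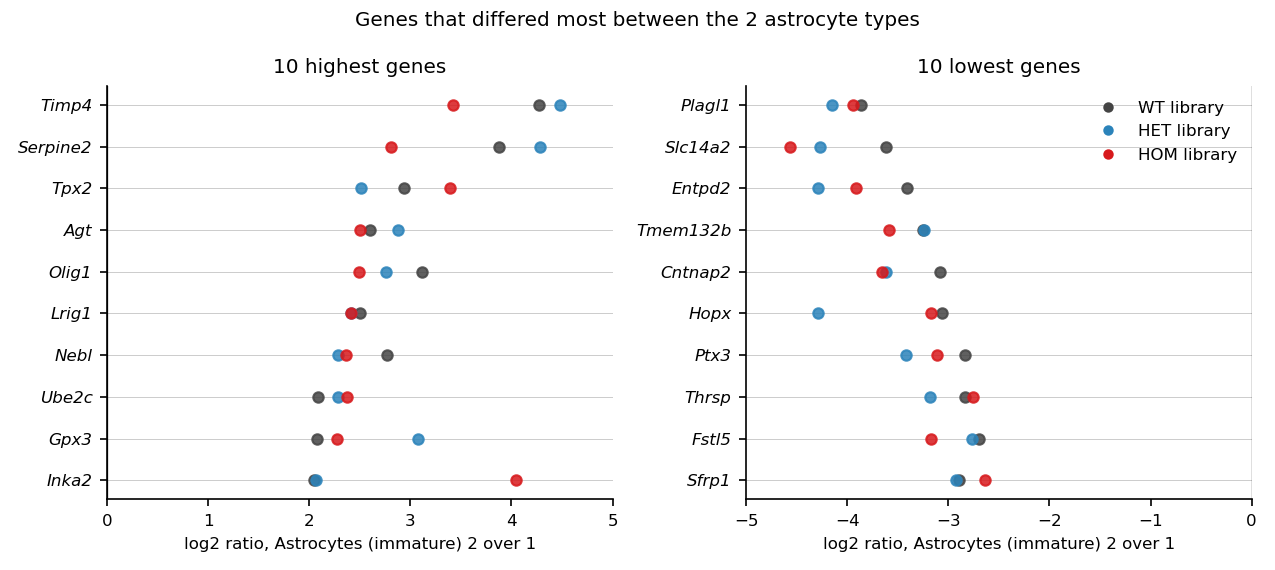
The 10 highest and 10 lowest genes of Astrocytes (immature) 2 against Astrocytes (immature) 1, as log2 ratios (x axis), with 1 point for each library. Genes are ordered by their weakest library, with Timp4 first among the high genes (3.42 in HOM) and Plagl1 among the low ones (-3.86 in WT).

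The list of radial glia and stem cell genes went both ways, with 1 of 14 higher, 3 lower and a median of -0.39. Of all genes compared, 3.72% were higher and 4.96% lower. In deep cells the list had 1 of 11 on each side and a median of 0.14. Hopx, a homeodomain protein of outer radial glia, stood at 44.3, 26.3 and 16.0 CPM in Astrocytes (immature) 2 and at 369, 515 and 144 in Astrocytes (immature) 1. Sfrp1, a secreted inhibitor of WNT signalling in the ventricular zone, stood at 168, 145 and 146 CPM against 1247, 1098 and 911. Plagl1, an imprinted zinc finger factor, stood at 17.4, 11.9 and 10.6 CPM against 253, 212 and 163 (log2 ratios -3.86, -4.15 and -3.94). No library of the type reached the lowest of the other type for these genes. Of 25 glial transcription factors compared, 10 were lower and 2 higher, with a median of -0.77. Pax6, a patterning factor of cortical radial glia, was at 39.2, 39.6 and 28.0 CPM against 245, 251 and 115. Zbtb20, a repressor that favours astrocyte formation, was at 185, 194 and 144 CPM against 988, 668 and 791, and Gli3 and Lhx2, further patterning factors of the dorsal forebrain, had log2 ratios of -2.18, -2.14 and -1.80 and of -1.99, -2.03 and -1.10. In cells of at least 2000 molecules Hopx kept ratios of -3.32, -4.07 and -3.11 and Pax6 of -1.98, -2.74 and -1.97, but the list's median was -0.34, with 5 lower and 4 higher of 20. Id3, an inhibitor of basic helix-loop-helix factors, was on the high side, at 1185, 1795 and 1553 CPM against 468, 1111 and 628.

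Of 18 transporters, channels and junction genes compared, 6 were higher, among them Aqp4, the bicarbonate transporter Slc4a4 (440, 347 and 332 CPM against 183, 176 and 158), the GABA transporter Slc6a11 (231, 204 and 216 against 85.2, 111 and 76.7), the glycine transporter Slc6a9 (log2 ratios 3.04, 2.96 and 2.02) and the sodium pump subunit Atp1b2 (0.85, 0.81 and 0.93). Slco1c1, a thyroxine transporter, was the lower one, at 32.7, 52.5 and 70.2 CPM against 450, 460 and 427. Slc1a3 lay below the fold, at 1449, 1457 and 1476 CPM against 1981, 1802 and 1842. Slc1a2, the glutamate transporter that comes to dominate in mature astrocytes, had ratios of -0.81, -0.52 and 0.03. In deep cells 8 of 15 transporters were higher and 1 lower.

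Secreted and matrix genes also went both ways, with 7 of 17 higher and 4 lower, beside 3.72% and 4.96% of all genes. Bcan, the matrix proteoglycan brevican, stood at 802, 761 and 777 CPM against 292, 267 and 249, and Sparcl1, a secreted protein that promotes synapse formation, at 2944, 3047 and 2956 against 1318, 1424 and 1717. Sparc, its antagonist at synapses, was at 367, 342 and 375 CPM against 1186, 1069 and 1108. Cst3, the protease inhibitor cystatin C, was lower too, with log2 ratios of -1.61, -1.23 and -1.31. Clu, the lipoprotein clusterin, stood at 211, 210 and 211 CPM against 762, 766 and 480, 1 of 3 lower genes among 27 lipid genes of which none was higher. In deep cells 6 of 22 lipid genes were higher and 2 lower, with a median of 0.36. Apoe differed little, with log2 ratios of 0.03, -0.26 and -0.15. Among receptors, 5 of 20 were higher and 3 lower. Fgfr3, a fibroblast growth factor receptor of the astrocyte lineage, was higher (87.9, 91.2 and 87.2 CPM against 12.2, 16.3 and 28.8), as was Grm3, a metabotropic glutamate receptor (158, 218 and 156 against 36.5, 45.6 and 48.0), whereas Fgfr1 was lower (log2 ratios -1.16, -0.78 and -1.29).

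Cell cycle genes were the list most shifted from Astrocytes (immature) 1 among those with at least 10 genes compared, with 9 of 17 higher, none lower and a median of 1.40. Ube2c, a ubiquitin-conjugating enzyme of mitosis, stood at 69.0, 95.5 and 99.6 CPM against 16.2, 19.6 and 19.2, and Top2a at 75.5, 98.9 and 82.6 against 16.2, 26.1 and 24.0. Over all cells the list averaged 2021 CPM in cluster 0 of the type and 8776 in cluster 8, against 1492 in Astrocytes (immature) 1. Among deep cells only 3 of its genes were compared, with 1 higher, none lower and a median of 0.62. The same 24 genes summed there to 2941, 3151 and 4145 CPM in Astrocytes (immature) 2 against 1690, 1405 and 1800. The libraries of both types did not overlap there either. Neuron markers were also higher than in Astrocytes (immature) 1 over all cells, 5 of 13 with none lower, but in deep cells 0 of 3 compared were past the fold, and their sums were 918, 1117 and 1090 CPM against 751, 569 and 704.

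The remaining comparisons were between libraries, within the type. Myt1l itself (chr12:29528384-29923213) stood at 93.7, 133 and 212 CPM, highest in HOM. Reads from the 5′ end do not test the deletion, so this level is no check of the genotype. In all other cells the HOM/WT log2 ratio was 1.01, against 1.18 in the type. In cells of at least 2000 molecules Myt1l stood at 18.4, 23.5 and 67.7 CPM, against 108, 191 and 290 CPM under 1000 molecules, and its levels in cluster 1 (189, 359 and 477 CPM) were above those in cluster 0 (68.6, 109 and 174 CPM). The neuron markers moved with it across depth and between clusters 0 and 1. Over all cells of the type they summed to 3351, 3250 and 3161 CPM. Within each depth band, however, WT was lowest. The sums were 4155, 4504 and 4208 CPM under 1000 molecules, 2508, 3152 and 3127 from 1000, and 918, 1117 and 1090 from 2000. Over all cells, 0 of 17 neuron markers were higher between HOM and WT and 4 lower (median -0.39), beside 5.06% and 13.4% of all genes. Their part in the Myt1l level was not tested.

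Between HET and WT, 416 of 7893 genes (5.27%) were at least 1.5-fold higher and 590 (7.47%) lower, or 326 and 734 without ribosomal, mitochondrial, red blood cell and sex-linked genes in the total. The balance turned to 263 higher and 184 lower in cells of at least 2000 molecules, 171 and 128 in cells of 1000 to 2000, 222 and 99 where a Y-linked transcript was seen, and 79 and 55 at a minimum sum of 200. The median of all genes was 0.00. Hes5, a NOTCH target that keeps radial glia undifferentiated, stood at 488, 875 and 691 CPM, and its HET/WT ratio of 0.84 compared with 0.15 in all other cells. Within the depth bands (under 1000, from 1000 and from 2000 molecules) that ratio was 0.45, 0.68 and 0.33, and 22.9% of HET cells were in the deepest band against 11.9% of WT cells. Rrm2, a subunit of ribonucleotide reductase, was higher by 1.00 (41.4 to 82.6 CPM) against -0.26 in other cells, and its ratios by depth were 0.80, 1.03 and 0.99. Cntfr, a receptor subunit for ciliary neurotrophic factor, was higher by 0.91 (42.8 to 80.7 CPM) with 1.33, 0.17 and 0.38 across the depth bands. Of 29 lipid genes 4 were higher and 2 lower, with a median of 0.24. Fdps, a sterol pathway synthase, was among the higher at 352 and 574 CPM, and Abca1, the lipid exporter that loads apolipoproteins, among the lower at 100 and 50.6 CPM (ratio -0.98, and -1.31, -1.31 and -1.08 by depth).

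Agt was the lowest gene by rank between HET and WT, with 98.7 and 47.8 CPM and a log2 ratio of -1.05, against -0.47 in all other cells. Gfap, the intermediate filament of mature astrocytes, stood at 89.3, 53.0 and 53.9 CPM. WT was highest for Gfap, but for Agt HOM was higher still. Sst, the neuropeptide somatostatin of interneurons, was lower by 0.87 in HET (85.7 and 46.8 CPM) and higher by 0.21 in other cells. Among cells of at least 2000 molecules Sst stood at 193, 15.1 and 7.66 CPM, from summed values of 42, 9 and 6. WT was also highest under 1000 molecules (73.2, 55.2 and 50.5 CPM), but lowest in the middle band (36.9, 69.4 and 44.4 CPM). The gap to WT was largest in the deep cells.

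Between HOM and WT, 421 of 8321 genes (5.06%) were at least 1.5-fold higher and 1113 (13.4%) lower, but 643 and 796 after median-of-ratios scaling, which moved the median of all genes from -0.10 to 0.00. The numbers were 482 and 489 in cells of at least 2000 molecules, 223 and 190 in cells of 1000 to 2000, and 244 and 120 where a Y-linked transcript was seen. Ptgds, prostaglandin D synthase of the meninges, had the largest ratio, at 7.26 and 289 CPM (5.31). It was larger still in all other cells (6.89) and was carried by 10.1% of the type's HOM cells. The 9 meningeal markers summed to 31.9, 26.7 and 323 CPM. In Astrocytes (immature) 1 Ptgds stood at 8.11, 19.6 and 3036 CPM, so HOM was high inside and outside the type.

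The glycolysis list stood out by count, with 9 of 19 genes higher between HOM and WT and 1 lower, beside 5.06% and 13.4% of all genes. Its median was 0.58, but in all other cells it was 0.59. Ldha, which makes lactate, stood at 404, 597 and 763 CPM. Eno1, an enolase, stood at 299, 450 and 546 CPM, and Pgk1, phosphoglycerate kinase, at 239, 383 and 406 CPM. WT was lowest for all 3, and in every depth band the HOM/WT ratio was above 0, between 0.29 and 1.00 for Ldha, 0.39 and 0.99 for Eno1 and 0.53 and 0.96 for Pgk1. Hexokinase Hk1 was the lower gene, at 64.6, 54.4 and 42.9 CPM. Its HOM/WT ratio was -0.53 and -0.82 in the shallower bands but 0.96 in the deepest, where the levels were 13.8, 28.5 and 26.8 CPM and the WT sum was only 3.

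Immediate early genes differed between libraries by an amount that changed with depth. Fos stood at 227, 278 and 455 CPM, Egr1 at 127, 172 and 256, and Ier2 at 102, 173 and 208, with HOM/WT ratios of 1.01, 1.01 and 1.03. WT was lowest for each gene and HOM highest. All 3 encode nuclear proteins that cells induce quickly after a stimulus. The Fos ratio was 1.88 under 1000 molecules, 1.54 in the middle band and 0.11 in cells of at least 2000, where the levels were 1271, 823 and 1369 CPM. The ratio by depth was 0.91, 1.09 and 0.26 for Egr1, with HET lowest among deep cells (619, 484 and 741 CPM), and 0.90, 0.55 and 0.43 for Ier2. In all other cells the HOM/WT ratios were 0.83 for Fos, 1.36 for Egr1 and 0.89 for Ier2.

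Of 27 glial transcription factors 0 were higher and 5 lower between HOM and WT, beside 13.4% lower of all genes, with a median of -0.31 (-0.50 in all other cells). Hopx stood at 44.3 CPM in WT and 16.0 in HOM (-1.47, against -1.79 in other cells), and the ratio was -2.09, -1.54 and -0.91 across the depth bands. Sox21, a SOX factor of neural progenitors, stood at 54.5, 35.3 and 29.1 CPM. WT was highest for both genes at each depth. Rbpj, the DNA-binding partner of NOTCH, stood at 42.8, 23.9 and 22.0 CPM, 1 of 4 lower NOTCH pathway genes among 12, of which 1 was higher.

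Lists of astrocyte functions had medians near 0 over all cells. Transporters had 2 of 20 genes higher between HOM and WT, none lower and a median of -0.00 (-0.28 in all other cells). Secreted genes had 1 of 21 higher, none lower and a median of 0.03. Receptors had 0 of 23 higher, 4 lower and a median of -0.02. Of all genes compared, 5.06% were higher and 13.4% lower. The summed transporters were highest in WT in every depth band. They stood at 3538, 2677 and 3140 CPM under 1000 molecules, 5973, 4907 and 5140 from 1000, and 10490, 9420 and 8858 from 2000. The higher transporters were Slc7a10 (0.69, with 0.76, 0.82 and 0.020 by depth) and Slco1c1 (1.10, with 0.52, 2.26 and 0.61). In the deepest cells Slc7a10 stood at 128, 149 and 130 CPM. Slc1a2, at 409, 479 and 393 CPM, had a ratio of -0.06 in the type and -1.08 in all other cells, but it was lower in HOM in each depth band (-0.13, -0.49 and -0.36). Btbd17, a leading gene of cluster 0, stood at 67.5, 75.0 and 106 CPM (0.65, against -0.81), with 0.16, 0.60 and 0.52 by depth. Fgfbp3, a carrier of fibroblast growth factors, stood at 341, 434 and 458 CPM (0.43, against -0.55), with 0.013, 0.14 and 0.22 by depth. The deepest band held 21.9% of HOM cells and 11.9% of WT cells. These 3 were among the 5 genes whose ratio in the type exceeded that in all other cells most, and the difference of ratios could not be tested with 1 library per genotype. In Astrocytes (immature) 1 the HOM/WT ratio was -0.90 for Slc1a2 and 0.32 for Fgfbp3, and Btbd17 was not compared. Astrocytes (immature) 1 is part of all other cells, and it made up 3.89%, 2.08% and 1.32% of the cells of the libraries. The part of its share in these ratios was not tested. Cell cycle genes had a median of 0.21 with 5 of 24 higher and none lower, against -0.27 in all other cells. Their direction changed with depth. They summed to 2175 CPM in WT and 1778 in HOM under 1000 molecules, 2402 and 2406 from 1000, and 2941 and 4145 from 2000.

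**Figure D5:**
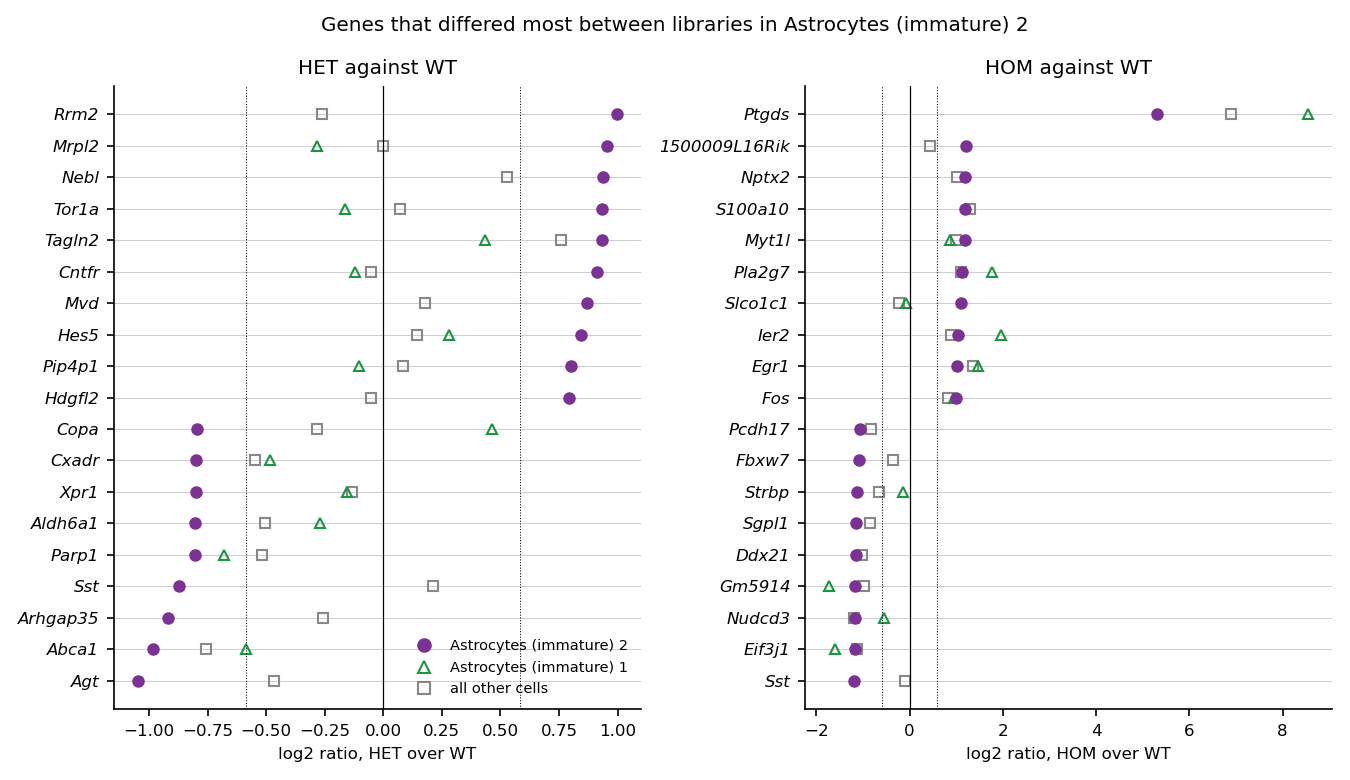
The 10 highest genes and 9 of the 10 lowest between HET and WT (left) and between HOM and WT (right) in Astrocytes (immature) 2, as log2 ratios (x axis), beside Astrocytes (immature) 1 (triangles) and all other cells (squares); dotted lines mark 1.5-fold. Ptgds reaches 5.31 in the type and 6.89 in all other cells, and Sst -1.19 and -0.11 between HOM and WT.

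The markers differed between libraries in their own ways. Pla2g7 stood at 198, 281 and 434 CPM, and its HOM/WT ratio of 1.13 compared with 1.11 in all other cells and with 1.19, 0.85 and 0.72 across the depth bands. Agt had a HOM/HET ratio of 1.51, against 1.44 in all other cells, but by depth it was 1.94, 2.07 and -0.17. In cells of at least 2000 molecules Agt stood at 174, 60.3 and 53.7 CPM, so HOM was highest over all cells and lowest among deep ones. Aqp4 and Lcat did not pass 1.5-fold between any pair of libraries.

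Between HOM and HET, 212 of 8767 genes (2.42%) were at least 1.5-fold higher and 611 (6.97%) lower, or 354 and 360 after median-of-ratios scaling. Ptgds and Agt ranked first on the high side, followed by Reln, the extracellular protein reelin of layer I neurons, at 28.2 and 62.0 CPM (1.14, and 0.92 in all other cells), with ratios of 1.24, 0.92 and 0.25 across the depth bands. Junb, an immediate early factor, stood at 51.6 and 96.1 CPM (0.90, and 0.69 in other cells), with 1.56, 1.45 and 0.78 by depth. On the low side were Eif3j1, a translation initiation subunit, at 117 and 61.0 CPM (-0.93, against -0.83), and Adnp, a chromatin-associated factor, at 62.1 and 34.4 CPM (-0.85, against -0.15). Adnp was lower in HOM in each depth band, with ratios of -0.86, -1.04 and -0.66. No transporter of 20 passed the fold in either direction. Red blood cell genes, which astrocytes do not make, were higher in 4 of 5 compared, with Hba-a1 at 298 and 683 CPM, and their part in the other ratios was not tested.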

How the data were processed

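Single-cell RNA-Seq of 3 libraries, deposited as 12 runs (4 of each library), was used. Per the submitters' processing notes, the genome was mm10 and the tools Cell Ranger 4.0.0 and Seurat 4.0. The authors filtered cells by detected genes and mitochondrial content, and transferred cell names from an atlas with scANVI. The deposited matrix is a score of whole numbers: a cell's values add up to 825 to 1952, whereas its deposited molecule count spans 499 to 17602 and equals that sum in only 617 of 36263 cells. The values were taken as corrected for depth, by a method the sources used here do not state, and analysed without a count model, a counting interval or thinning. The deposited cell table also gives mitochondrial content as a percent and the annotation probability as a fraction. The authors' comparison tables hold their own fold changes and p-values and were not used.

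Values were summed per cell type and library and divided by their total. A gene was compared from a sum of 50 and counted past 1.5-fold, in all 3 libraries for comparisons between types. Shares carry exact Clopper-Pearson 95% intervals, for counting error only. The 4 runs of a genotype cannot be told apart in the matrix and were 1 library. Members, the 24 gene lists and the comparisons were chosen with earlier results of these data known. Named genes were the 5 markers, up to 6 members of a list by level or ratio, and the 10 highest and 10 lowest genes of each comparison, or the 5 differing most from all other cells, with a sum of at least 200 between libraries and the same sign in cells of at least 1000 molecules. Sex-linked, red blood cell, ribosomal and mitochondrial genes were left out of the ranks. Alternatives were another scaling, total, minimum, fold, pseudocount, depth, annotation probability and Leiden cluster. The sources used here do not say whether doublets were removed, and none were called. The code was tested on simulated data. Python 3.11.15, numpy 2.4.6, pandas 2.3.3 and scipy 1.17.1 were used. A few genes that the rules picked are not reported here.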

Additional observations from a re-analysis of the deposited data

Results flagged for a closer look

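A few genes were past 1.5-fold in opposite directions between the same libraries in both astrocyte types. Between HET and WT this held for 3 of the 2500 genes compared in both. Gfap had a log2 ratio of -0.75 in Astrocytes (immature) 2 and 0.64 in Astrocytes (immature) 1, Gpcpd1, a glycerophosphocholine phosphodiesterase, 0.67 and -1.23, and Ppp4r3b, a regulatory subunit of protein phosphatase 4, 0.60 and -0.75. Between HOM and WT it held for 2 of 2358 genes. Slc8a1, a sodium-calcium exchanger, had ratios of -0.84 and 0.61, and Stoml2, a mitochondrial membrane protein, 0.67 and -0.99. Between HOM and HET it held for 0 of 1762 genes. None of these differences was tested, because each genotype is 1 library, and Astrocytes (immature) 1 held 409, 251 and 181 cells.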

How the results depend on the processing

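Each genotype is 1 library, so none could be left out, and cells were shallow and their values corrected, so a low gene can rest on a few cells. No paired analysis was possible because replicate numbers 1 to 4 of the labels are runs of 1 library and the matrix columns carry none. The share of the type was 6.44%, 11.9% and 11.7% (WT, HET, HOM) among cells of at least 1000 molecules, 16.3%, 17.5% and 19.9% with both astrocyte types joined, 5.14%, 11.7% and 11.7% where only cells carrying a Y-linked transcript were kept, 16.4% in HET and 20.0% in HOM without microglia, endothelial and choroid plexus cells, and 17.0% in HET and 20.0% in HOM at an annotation probability of at least 0.9. Counts of genes past the fold are given as higher/lower. Against Astrocytes (immature) 1 they were 362 higher at a minimum sum of 20, 49/95 at 200, 124/162 in cells of at least 2000 molecules, 35/13 in cells of 1000 to 2000 molecules and 80/112 at 2-fold. Against all other cells they were 1316 lower with median-of-ratios scaling, 638 higher at a minimum sum of 200, 511/1128 in cells of 1000 to 2000 molecules, 1221 lower with a pseudocount of 10 CPM and 649/926 at 2-fold. Between HET and WT they were 814/1236 at a minimum sum of 20, 79/55 at 200, 268/369 from 1000 molecules, 263/184 from 2000, 171/128 in between, 222/99 in cells with a Y-linked transcript, 155/220 with the pseudocount and 56/74 at 2-fold. Between HOM and WT, in the same order and without the one from 1000 molecules, they were 746/1911, 129/181, 489 lower, 223/190, 244/120, 181/488 and 84/185, and 643 higher with median-of-ratios scaling. Between HOM and HET they were 354/360 with that scaling, 503/1120 and 31/64 at sums of 20 and 200, 133 higher from 1000 molecules, 111/189 at 1000 to 2000, 97/149 in the Y-linked cells, 65/124 with the pseudocount and 38/66 at 2-fold. In cells of 1000 to 2000 molecules the median of glial transcription factors against Astrocytes (immature) 1 turned to 0.34. Against all other cells, medians turned to -0.054 for NOTCH pathway genes and 1.03 for oligodendrocyte markers at a minimum sum of 200, to 1.24 for the latter in cells of 1000 to 2000 molecules, and to 0.21 for microglia markers at a probability of at least 0.9. That probability filter kept 168 of the 871 microglia among the other cells. In cells of at least 2000 molecules the log2 ratio turned to -0.17 for Agt (HOM/HET) and -0.0062 for Slco1c1 (HET/WT). The cause of these changes was not tested. Using Leiden cluster 0 alone, or all but cluster 8, was chosen after seeing the data, and turned no value.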

Other observations

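Several gene lists gave values that belong in no comparison above. Against Astrocytes (immature) 1, metabolic genes of astrocytes had a median log2 ratio of -0.34 with 0 of 17 at least 1.5-fold higher in all 3 libraries and 3 lower. WNT pathway genes had a median of -0.47 with 2 of 13 higher and 2 lower. NOTCH pathway genes had one of -0.30 and thymosins, tubulins and actin one of 0.35, with no gene of 10 and of 12 past the fold. Of all genes compared with Astrocytes (immature) 1, only 3.72% were higher and 4.96% lower. Against all other cells, radial glia genes were higher in 11 of 16 with none lower (median 1.93). NOTCH pathway genes were higher in 8 of 17 with 3 lower, and hypoxia and glycolysis genes in 8 of 19 with 1 lower. Of all genes in that comparison, 9.68% were higher and 20.0% lower.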
